A study of Mus with 9 samples.

Results

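Glycolytic enzymes split glucose into pyruvate in the cytosol, and lactate dehydrogenase interconverts pyruvate and lactate. The genes described here are 10 enzymes of this route: Hk1, Pfkm, Aldoa, Gapdh, Pgk1, Pgam1, Eno2, Pkm, Ldha and Ldhb. They were chosen by gene symbol, and each symbol was matched by 1 probe set, so that 10 of the 22206 probe sets of the array were followed. RNA came from the hippocampus of male mice that entered the study at 16 weeks of age, before acclimatization and dosing, and was measured on Clariom S mouse arrays, 9 in all and 3 in each of 3 groups. Senescence-accelerated mouse prone 8 (SAMP8) is an inbred strain in which learning and memory decline early, and senescence-accelerated mouse resistant 1 (SAMR1) is the related strain that ages normally. One group was SAMR1 given vehicle, one was SAMP8 given vehicle, and one was SAMP8 that received oral trigonelline (TG), 5 mg/kg daily. TG is a plant alkaloid found in coffee and fenugreek. Dosing lasted 30 days and went on during 8 days of behavioral testing, so the tissue of all groups came from mice that had been tested in the water maze. SAMR1 is a different strain and not an untreated littermate of SAMP8, and no SAMR1 mice on TG were among the groups.

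Every level below is the average of a group on the log2 scale, as deposited, after the arrays had been normalized together. The values of single arrays were not used here, so no spread between mice, no test and no p-value stand behind any difference, and the number of arrays limits the precision. From the averages alone it cannot be said which of the differences exceed the variation between mice. A level of one probe set is not set against that of another, because each set of probes binds with its own efficiency. Since the tissue was a whole hippocampus, fewer cells of a type and less RNA per cell cannot be told apart.

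Neurons and astrocytes divide glucose use between them. In textbook accounts astrocytes favor glycolysis and export lactate, whereas neurons take lactate up and oxidize it, and the brain depends on a steady glucose supply through facilitative transporters. Hexokinase and phosphofructokinase commit glucose to the pathway, aldolase cleaves the sugar, the enzymes from glyceraldehyde-3-phosphate dehydrogenase (GAPDH) to pyruvate kinase recover ATP, and lactate dehydrogenase closes the redox balance by turning NADH back into NAD+. TG is itself a methylated form of nicotinic acid, a precursor of NAD+.

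TG-treated SAMP8 had higher averages than SAMP8 for 7 of the 10 enzymes and lower averages for 3. Ldha was the only member higher by 1.5-fold or more. Aldoa, Gapdh and Ldhb joined it at 1.2-fold or more, and no member was lower by that much. Over all probe sets, 4.48% were higher and 3.74% lower by 1.5-fold or more, and 19.6% were higher and 18.5% lower by 1.2-fold or more. The median difference of the members was 0.23, against 0.01 over all probe sets and -0.06 over the 2196 probe sets whose mean signal reached that of the lowest member, Ldhb. At any size, 50.0% of all probe sets and 40.1% of these brighter ones were higher with TG than in SAMP8.

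**Figure D1:**
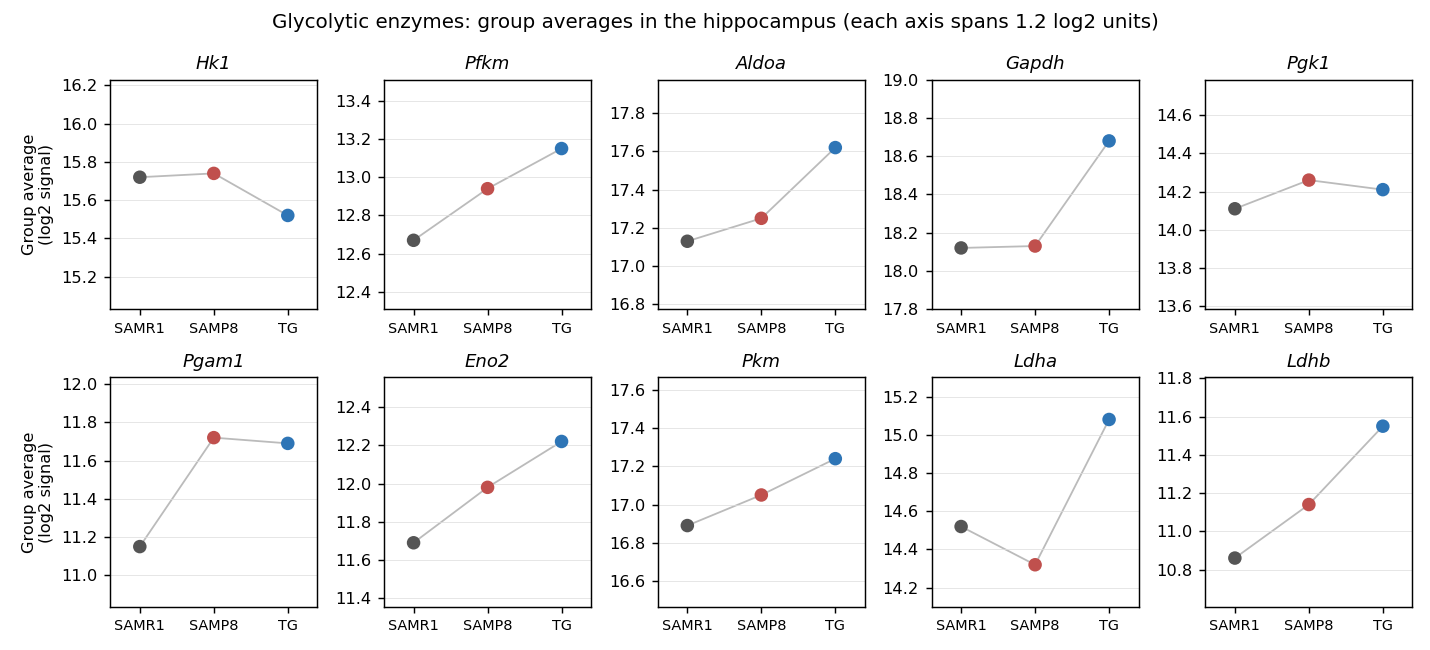
Group averages (log2 signal) of the 10 glycolytic enzymes in pathway order, 1 point for each group, with TG for TG-treated SAMP8. Lines only guide the eye and each axis spans 1.2 log2 units. Ldha dips to 14.32 in SAMP8 and stands at 15.08 in TG-treated SAMP8, Gapdh stands apart only with TG, and Pgam1 stands apart only in SAMR1.

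Ldha had the largest difference of the 10 enzymes in the comparison of TG-treated with untreated SAMP8. It encodes the M subunit, which favors the making of lactate, and its average was 14.52 for SAMR1, 14.32 for SAMP8 and 15.08 for TG-treated SAMP8. The TG-treated group was thus 0.76 above SAMP8, or 1.69-fold, and also 0.56 above SAMR1. Ldhb encodes the H subunit, which favors the return of lactate to pyruvate, and its averages for the groups as just listed were 10.86, 11.14 and 11.55. SAMP8 was the lowest group for Ldha and the middle group for Ldhb. With TG, the difference of Ldha was larger than that of Ldhb by 0.35, whereas between the untreated strains it was smaller by 0.48, Ldha being lower in SAMP8 by 0.20 (a difference of -0.20) and Ldhb higher by 0.28. Both subunits ended above SAMR1, Ldha by 0.56 and Ldhb by 0.69.

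Gapdh, the enzyme that oxidizes glyceraldehyde-3-phosphate and makes NADH, had the second largest difference with TG, ahead of Ldhb. SAMR1 averaged 18.12, SAMP8 18.13 and TG-treated SAMP8 18.68. The untreated strains were within 0.01 of each other, and the TG-treated group was 0.55 above SAMP8, or 1.46-fold. Gapdh is often used to scale other transcripts. Against Gapdh, only Ldha of the other 9 members was higher with TG than in SAMP8, and 8 were lower. Against it, 8 of the other 9 members were higher in SAMP8 than in SAMR1, though Hk1 (0.02 against 0.01) by no more than rounding.

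Aldoa, the main aldolase of muscle and neurons, stood at 17.13 for SAMR1, 17.25 for SAMP8 and 17.62 with TG, a difference of 0.37 with TG. Pfkm, the muscle form of phosphofructokinase, stood at 12.67, 12.94 and 13.15, and was 0.21 higher with TG. Both followed the same order of groups. Eno2, the neuronal enolase, had averages of 11.69, 11.98 and 12.22 and was 0.24 higher with TG. Pkm, pyruvate kinase, the last step to pyruvate, had averages of 16.89, 17.05 and 17.24 and was 0.19 higher. These last 3 enzymes stayed under 1.2-fold in the comparison of TG-treated with untreated SAMP8.

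For 3 members the TG-treated average was the lower one. Hk1 encodes the hexokinase that sits on mitochondria and is the main form in brain, and it stood at 15.72 for SAMR1, 15.74 for SAMP8 and 15.52 with TG, a difference of -0.22 with TG. Hk1 was also the only member whose TG-treated average lay below SAMR1, by 0.20 (a difference of -0.20). Pgk1, the phosphoglycerate kinase that makes the first ATP of the pathway, had averages of 14.11, 14.26 and 14.21. Pgam1, phosphoglycerate mutase, had averages of 11.15, 11.72 and 11.69. The differences of Pgk1 and Pgam1 with TG, -0.05 and -0.03, were so small that centring the groups on their 75th percentile turned them to 0.01 and 0.03.

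**Figure D2:**
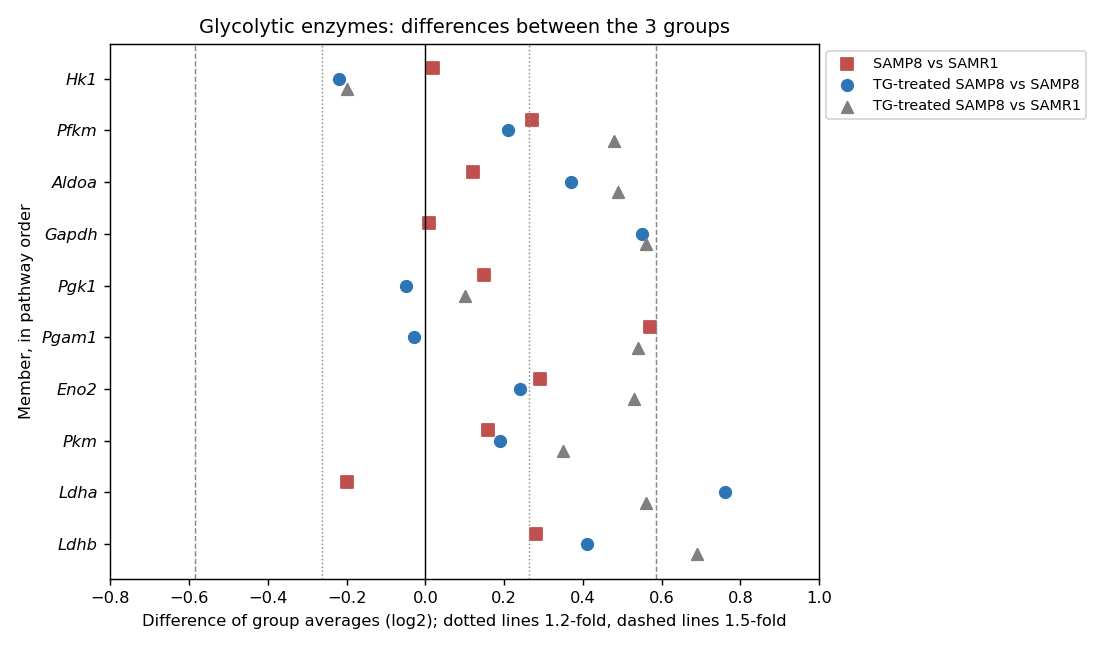
Differences of group averages (log2) of the 10 enzymes for SAMP8 minus SAMR1 (squares), TG-treated SAMP8 minus SAMP8 (circles) and TG-treated SAMP8 minus SAMR1 (triangles). Dotted and dashed lines mark 1.2-fold and 1.5-fold. Ldha with TG against SAMP8, at 0.76, and Ldhb with TG against SAMR1, at 0.69, are the points beyond 1.5-fold.

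Between the untreated strains, 9 of the 10 averages were higher in SAMP8 than in SAMR1 and 1, that of Ldha, was lower. At any size, 49.5% of all probe sets and 65.5% of those at or above the lowest member were higher in SAMP8. No member differed by 1.5-fold. Pgam1 came nearest, 0.57 higher in SAMP8, or 1.48-fold. At 1.2-fold or more, 4 members were higher in SAMP8 (Pgam1, Eno2, Ldhb and Pfkm) and 0 were lower. The shares over all probe sets were 5.0% higher and 6.08% lower by 1.5-fold or more, 20.4% higher by 1.2-fold or more and 20.4% lower by 1.2-fold or more. Brightly measured probe sets as a whole lay to the SAMP8 side: those at or above the lowest member had a median of 0.10 and 27.1% of them were higher by 1.2-fold or more, against a median of 0.16 and 4 of 10 for the members. The direction of Gapdh (0.01) and Hk1 (0.02) turned when the groups were centred on their 75th percentile or on these brighter probe sets, and that of Aldoa (0.12) turned under the 75th percentile. Pkm was 0.16 and Pgk1 0.15 higher in SAMP8.

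TG-treated SAMP8 lay above SAMR1 for 9 of the 10 enzymes. At any size, 48.1% of all probe sets and 53.7% of those at or above the lowest member were higher. Ldhb was higher by 1.61-fold, and it was the 1 member past 1.5-fold, where 5.62% of all probe sets were higher and 4.83% lower by that much. At 1.2-fold or more, 8 members were higher and 0 lower, the exceptions being Pgk1 at 0.10 and Hk1 at -0.20. Of all probe sets, 20.0% were higher and 20.5% lower by 1.2-fold or more, and of the probe sets at or above the lowest member 26.5% were higher. The members' median difference was 0.51, against -0.01 for all probe sets and 0.04 for the brighter ones. The 6 members Pfkm, Aldoa, Eno2, Pgam1, Gapdh and Ldha differed by a similar amount, between 0.48 and 0.56. They reached it by different routes, since Pgam1 already had its difference of 0.57 in untreated SAMP8, Gapdh and Ldha showed theirs with TG alone, Aldoa showed most of it with TG, and Pfkm and Eno2 divided theirs nearly equally. The comparison with SAMR1 is the sum of the other two, and all 3 share arrays, so it is no separate evidence. The SAMP8 averages enter the comparison between the strains and that of TG-treated with untreated SAMP8 with opposite signs. Opposite differences in this pair, here and below, are therefore not independent of each other.

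**Figure D3:**
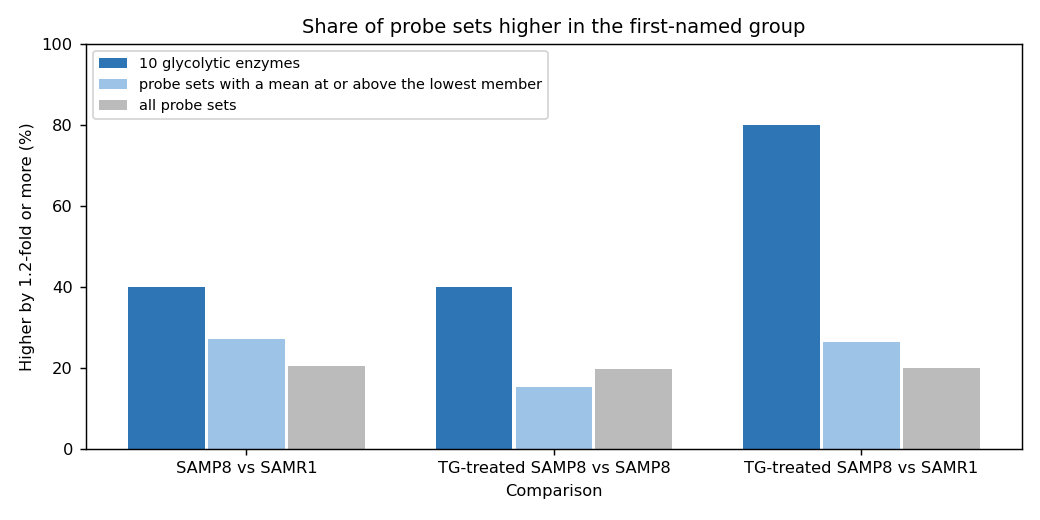
Share (%) of probe sets whose average was higher by 1.2-fold or more in the first-named group of each comparison, for the 10 glycolytic enzymes, for the probe sets with a mean signal at or above the lowest of the 10, and for all probe sets. The members' bars stand for 4, 4 and 8 genes, and the bars of all probe sets stand at 20.4%, 19.6% and 20.0%.

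The order of the 3 averages was SAMR1, SAMP8, TG-treated SAMP8 from low to high for 6 members (Pfkm, Aldoa, Gapdh, Eno2, Pkm and Ldhb), an order that 16.6% of all probe sets had. Pgk1 and Pgam1 were highest in untreated SAMP8, Ldha was lowest in it, and Hk1 was lowest with TG. By stage of the pathway, the median difference with TG against SAMP8 was 0.21 for Hk1, Pfkm and Aldoa, 0.19 for the 5 enzymes from Gapdh to Pkm, and 0.59 for the pair of lactate dehydrogenases. Against SAMR1 the medians were 0.48, 0.53 and 0.63. Regardless of direction, the mean absolute difference of the members was 0.207 between the strains, where all probe sets had 0.286 and the brighter ones 0.255. It was 0.303 with TG against SAMP8, where these had 0.253 and 0.261, and 0.45 with TG against SAMR1, where these had 0.279 and 0.319. The members thus lay below the array's mean between the strains and above it in both comparisons with TG.

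The genes lie on 7 chromosomes of the mouse assembly GRCm38, and no single neighborhood holds all of them. Eno2 and Gapdh lie close together on chromosome 6. Gapdh (chr6:125161852-125166467), Eno2 (chr6:124760053-124769673) and Ldhb (chr6:142490249-142507957) share chromosome 6, and Aldoa (chr7:126795234-126800994) and Ldha (chr7:46842274-46855627) share chromosome 7. Hk1 spans chr10:62268855-62379920, Pfkm chr15:98092589-98132447, Pgk1 chrX:106187100-106203699, Pgam1 chr19:41911871-41918665 and Pkm chr9:59656576-59679372. Hk1 is by far the longest, at 111 kb, and Gapdh the shortest, at 4.62 kb. Gene span also went with the difference with TG against SAMP8 elsewhere on the array. Among probe sets at or above the lowest member, the median difference with TG against SAMP8 was 0.20 for genes under 10 kb, -0.07 for genes of 10 to 100 kb and -0.16 for genes of 100 kb or more. Over all probe sets placed on the assembly these medians were smaller, 0.07, -0.02 and -0.12. For TG-treated SAMP8 against SAMR1, the medians over all placed probe sets were 0.00, 0.00 and -0.03. Between the strains these ran the other way from those with TG against SAMP8, -0.05, 0.03 and 0.08, the same SAMP8 averages entering with the opposite sign. Among probe sets at or above the lowest member, the medians against SAMR1 were 0.31, 0.03 and -0.07. Between the strains those brighter probe sets had medians of 0.09, 0.11 and 0.11. The members' medians in these classes with TG against SAMP8 were 0.31 for 4 genes, 0.21 for 5 genes and -0.22 for Hk1 alone. The part of gene span in the members' differences was not tested.

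The other enzymes of the same steps did not share one direction. Of 21 symbols, 20 had a probe set of their own, with a median difference of 0.07 with TG against SAMP8 and -0.03 between the strains. Tpi1, triosephosphate isomerase, averaged 14.47 for SAMR1, 14.86 for SAMP8 and 15.53 with TG. It was 0.67 above SAMP8 and 1.06 above SAMR1, more than any of the 10 members against SAMR1. Aldoc, the aldolase of astrocytes, stood at 16.30, 16.76 and 17.28. Its difference exceeded that of Aldoa in each comparison, with 0.46 between the strains, 0.52 with TG and 0.98 for TG-treated SAMP8 against SAMR1. Hk2, the inducible hexokinase, stood at 5.08, 5.46 and 5.77, and TG-treated SAMP8 was 0.69 above SAMR1. These 3 were the enzymes outside the 10 that passed 1.5-fold in a comparison. The probe set of Hk2 lay below the median of all probe sets in each group (6.09, 6.04 and 6.07) and was not checked against background.

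Isoenzymes of a single step parted. Pfkp, the platelet form of phosphofructokinase, had averages of 12.67, 12.65 and 12.25, a difference of -0.40 with TG where Pfkm had 0.21, so that the pair differed by 0.61. Pfkl, the liver form, lay between them at 0.11. Gpi1, which isomerizes glucose-6-phosphate, stood at 16.02 in SAMR1, 16.39 in SAMP8 and 16.12 with TG, highest in untreated SAMP8. The probe set shared by Eno1 and its copy Eno1b stood at 17.68, 17.34 and 17.82, with SAMP8 lowest as for Ldha, and cannot be given to either gene. Bpgm, the bisphosphoglycerate mutase that turns an intermediate aside, was 0.48 higher in SAMP8 than in SAMR1 and differed by -0.37 with TG.

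The remaining forms named here belong mainly to other tissues. With TG against SAMP8, the hexokinases Hk3 and Hkdc1 differed by -0.27 and 0.16, and the sperm forms Gapdhs, Pgk2 and Ldhc by -0.03, 0.14 and -0.01. Muscle Pgam2 differed by 0.27, Eno3 by -0.07, Eno4 by -0.07, Eno1b by 0.09, liver and red-cell Pklr by 0.00, and Ldhal6b by 0.27. None of them reached 1.5-fold in any of the 3 comparisons, and their dimmest probe sets, such as that of Ldhc at 3.77, 3.28 and 3.27 in the 3 groups, were not checked against background.

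**Figure D4:**
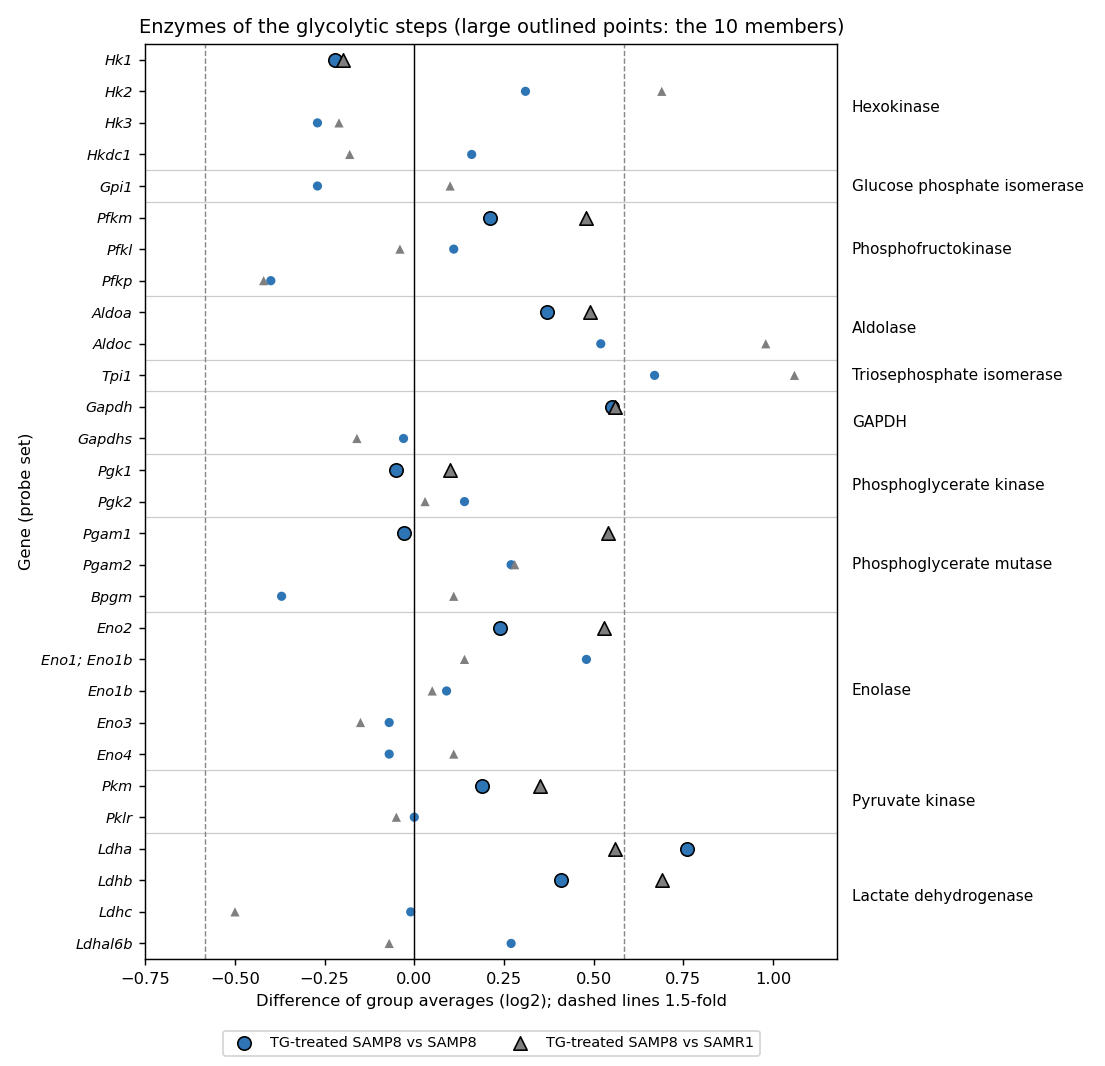
Differences of group averages (log2) for the enzymes named at each glycolytic step, TG-treated SAMP8 minus SAMP8 (circles) and minus SAMR1 (triangles), with the 10 members as large outlined points and dashed lines at 1.5-fold. Tpi1 and Aldoc lie farthest to the right, at 1.06 and 0.98 against SAMR1, and Pfkp lies opposite to Pfkm.

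Glucose transporters showed another pattern than the enzymes. Slc2a1 encodes GLUT1, the carrier of the blood-brain barrier and of astrocytes, and the groups averaged 12.34 (SAMR1), 13.45 (SAMP8) and 12.49 (TG-treated SAMP8). Slc2a3 encodes GLUT3, the neuronal carrier, with 9.69, 10.69 and 9.81. Both were highest in untreated SAMP8, by 1.11 and 1.0 above SAMR1, and the TG-treated averages lay 0.15 and 0.12 above SAMR1. Slc2a5, a fructose carrier found on microglia, stood at 4.47, 5.54 and 5.21. Its probe set was dim and was not checked against background. The other Slc2a genes of the list, Slc2a4, Slc2a8 and Slc2a13, stayed within 0.16 in every comparison. Over the 11 transporter genes, 3 were higher by 1.5-fold in SAMP8 than in SAMR1, 3 were lower by 1.5-fold with TG than in SAMP8 (Slc2a1, Slc2a3 and Slc16a1), and 2 were higher with TG than in SAMR1. The shares of all probe sets past 1.5-fold in these directions were 5.0%, 3.74% and 5.62%.

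The lactate carriers differed among themselves. Slc16a1 (MCT1), of endothelium and glia, stood at 8.54, 8.91 and 8.29, a difference of -0.62 with TG against SAMP8. Slc16a7 (MCT2), the neuronal lactate carrier, stood at 9.65, 9.59 and 9.11, a difference of -0.48. Slc16a3 (MCT4), through which astrocytes release lactate, stood at 4.91, 5.35 and 5.71, so that TG-treated SAMP8 was 0.80 above SAMR1. Their chaperone Bsg, basigin, was 0.19 higher with TG, and Slc16a8 of the retina was 0.44 higher at a level near 3. The dim probe sets of Slc16a3 and Slc16a8 were not checked against background.

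Endothelial markers ran the same way as Slc2a1 and Slc16a1. Their median difference was 0.28 between the strains, with 8 of 9 higher in SAMP8, and -0.35 with TG, with 8 of 9 lower. The mean level of this list was 7.41 in SAMR1, 8.18 in SAMP8 and 7.79 with TG, but 1 gene carried much of it. Abcb1a, an efflux pump of the blood-brain barrier, stood at 6.50, 10.82 and 9.90, and without it the mean levels were 7.53, 7.85 and 7.53 and the medians 0.27 and -0.29. Meninges markers had medians of 0.17 and -0.42, with 10 of 14 lower with TG. Their mean level was 6.18 in SAMR1, 6.43 in SAMP8 and 5.98 with TG. At any size, 10984 of all 22206 probe sets were higher in SAMP8 than in SAMR1. With TG against SAMP8, 10732 of all probe sets were lower. The part of vessels and meninges in the carriers' differences was not tested.

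**Figure D5:**
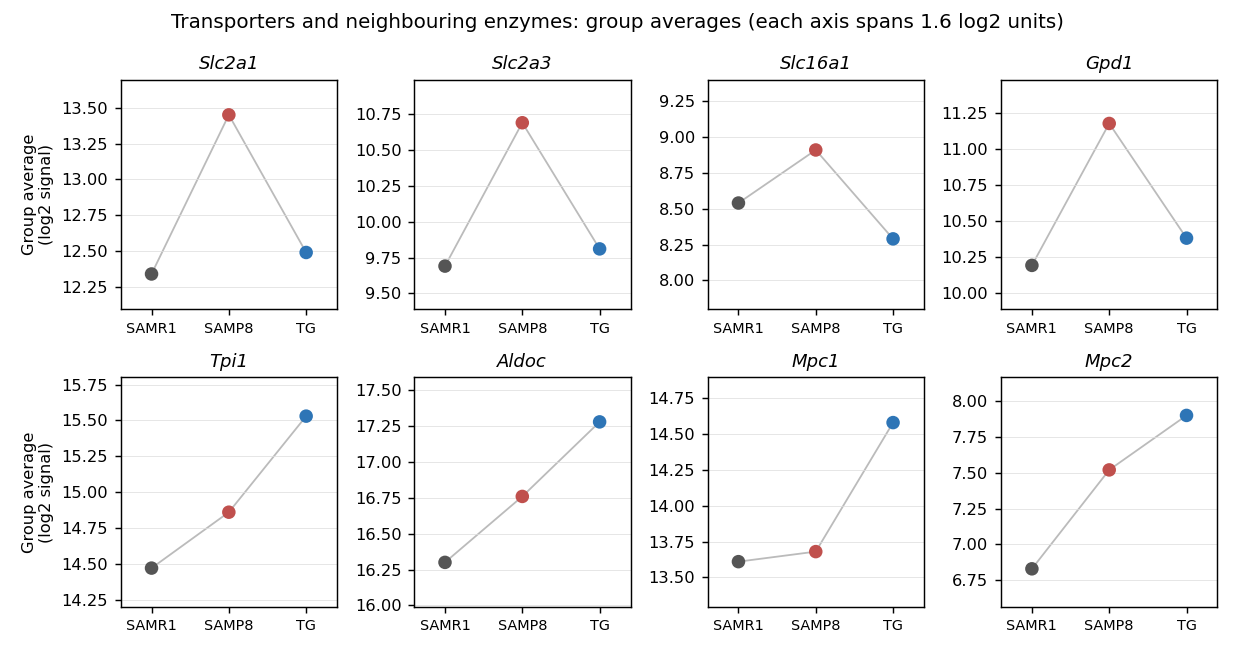
Group averages (log2 signal) of glucose and lactate carriers, enzymes and the pyruvate carrier that border on the 10 members, with TG for TG-treated SAMP8. Lines only guide the eye and each axis spans 1.6 log2 units. Slc2a1, Slc2a3 and Gpd1 peak in untreated SAMP8, whereas Tpi1, Aldoc, Mpc1 and Mpc2 are highest with TG.

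Beyond pyruvate, both subunits of the mitochondrial pyruvate carrier were highest with TG. Mpc1 stood at 13.61 for SAMR1, 13.68 for SAMP8 and 14.58 with TG, and Mpc2 at 6.83, 7.52 and 7.90. Mpc1 therefore had nearly all of its difference in the comparison with TG (0.90), and Mpc2 most of it between the strains (0.69). The pyruvate dehydrogenase components Pdhb and Pdhx were 0.72 and 0.70 higher in SAMP8 than in SAMR1 and differed by -0.31 and -0.19 with TG. Over the 14 genes of pyruvate entry, the median was 0.25 between the strains and -0.08 with TG against SAMP8.

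Among the NADH shuttles, which pass reducing power from cytosol to mitochondria, Gpd1 stood at 10.19, 11.18 and 10.38. Gpd1 is glycerol-3-phosphate dehydrogenase, which draws on the same triose pool as Gapdh. It was 0.99 above SAMR1 in untreated SAMP8 and differed by -0.80 with TG, and its relative Gpd1l differed by -0.73 with TG. The shuttle list of 10 had a median of -0.14 with TG. In the other branches the medians with TG against SAMP8 were 0.04 for 6 gluconeogenic genes, -0.02 for 7 pentose phosphate genes and 0.04 for 12 glycogen genes. Pgls, the lactonase of the pentose phosphate pathway, was 0.70 higher with TG, and Gbe1, the glycogen branching enzyme, was 0.66 higher in SAMP8 than in SAMR1. The probe set of Gbe1 was dim, at 3.43 for SAMR1, 4.09 for SAMP8 and 3.74 with TG, and was not checked against background.

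The listed regulators had a median of -0.19 with TG against SAMP8 over 16 probe sets, opposite in sign to that of the enzymes. Egln1 and Egln2 encode prolyl hydroxylases that mark hypoxia-inducible factor for breakdown. Egln1 was 0.75 higher in SAMP8 than in SAMR1, and Egln2 stood at 7.60, 8.18 and 8.61, so that TG-treated SAMP8 was 1.01 above SAMR1. Hif1a itself, the oxygen-regulated factor that drives glycolytic genes, was -0.33 between the strains and 0.19 with TG. Tigar, a phosphatase that lowers the activator of phosphofructokinase, was 0.71 higher in TG-treated SAMP8 than in SAMR1, and Pfkfb3, which makes that activator, differed by -0.54 with TG against SAMP8.

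The pattern of Ldha, the member with the widest range (0.76), was compared with that of 2081 probe sets with 1 symbol and at least the signal of the lowest member. Nearest were Rps3a1 and Rpl17, which encode ribosomal proteins, at summed distances of 0.05 and 0.07 over the 3 centred averages, then Mllt11 at 0.10, Ndufc2, a subunit of respiratory complex I, at 0.13, and Selk, a selenoprotein of the endoplasmic reticulum, at 0.13. Rps3a1 stood at 12.21 in SAMR1, 12.04 in SAMP8 and 12.82 with TG. The likeness rests on 3 averages only.

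Several members have processed copies elsewhere in the genome whose transcripts can bind the same probes, so the level of these members is uncertain to that extent. Of the copies with probe sets of their own, 4 Gapdh pseudogenes differed by 0.03 to 0.17 with TG against SAMP8, the brightest, Gm12070, by 0.17 (14.79, 14.75 and 14.92 in the 3 groups), and Gapdh exceeded it by 0.38. The aldolase copies Aldoart1 and Aldoart2 differed by 0.01 and 0.38.

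Cell markers were set beside these values. Markers of hippocampal neurons were present and went both ways with TG against SAMP8, 5 higher and 5 lower with a median of 0.01. Prox1, of granule neurons, differed by -0.85 and Nrgn, neurogranin, by 0.84, while Neurod6, of pyramidal neurons, stood at 14.86, 14.85 and 14.88. Camk2a was left out of these counts because it read 19.93 in every group, the highest average on the array, and so could not order the groups. Zbtb20 shares its probe set with Mir568 and was not counted either, and that probe set differed by -0.65 with TG. General neuron markers other than Eno2 and the equally flat Syt1 (19.70 in every group) had a median of 0.05 over 9 genes, astrocyte markers other than Aldoc -0.03 over 9, and microglia markers -0.03 over 11. Oligodendrocyte markers had a median of 0.39 with TG, with 10 of 11 higher, and of -0.21 between the strains, where the members had 0.16, and their mean level was 9.79 for SAMR1, 9.72 for SAMP8 and 10.11 with TG. Of all probe sets, 50.0% were higher with TG than in SAMP8. Of the red blood cell markers only Alas2 and Slc4a1 had a probe set of their own, 0.44 and 0.06 higher with TG. The 4 probe sets shared between hemoglobin genes went the other way, with differences of -0.42, -0.35, -0.17 and -0.32 with TG against SAMP8. Choroid plexus markers had a median of -0.11 over 10 genes although Ttr, the plexus transthyretin, was 0.72 higher with TG. Markers of thalamus and striatum, which border on the hippocampus at dissection, had a median of -0.09 over 12 probe sets of 10 genes. Of these probe sets, 9 were lower with TG than in SAMP8 and 3 were higher. Prkcd, at 10.85, 11.03 and 9.53, had the largest difference of this list, -1.50, followed by Drd2 at -0.96. Tcf7l2 differed by -0.04, Lef1 by 0.10 and the probe sets of Rora by 0.13, -0.10 and -0.14. The part of any of these cell types in the members' differences was not tested.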

How the data were processed

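Hippocampal RNA of 9 mice was hybridized to Clariom S mouse arrays. The authors normalized the arrays with signal space transformation and robust multichip analysis in the Transcriptome Analysis Console, and the 2 deposited tables hold the average log2 signal of each group for 22206 probe sets, written to 2 decimals, so that a difference carries up to 0.01 of rounding. Both tables carry the SAMP8 averages, without any difference between them. The remaining columns of each table hold the authors' own fold changes, p-values and false discovery rates, which were not used. The series text speaks of duplicate RNA samples, whereas the sample records and the methods give 3 mice a group, and the records name saline as vehicle whereas the methods name water.

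Samples were grouped by their titles. Differences of group averages were computed in Python 3.11.15 with pandas 2.3.3 and numpy 2.4.6, with no filter, for 3 comparisons, and counted at 1.5-fold and 1.2-fold. The arithmetic was tested on simulated averages. No test was run, since each group has 1 pooled average. Gene spans are those of RefSeq on GRCm38, on which 89.5% of all probe sets and every member were placed by their single symbol. Probe sets naming several genes (836) were kept in counts over all probe sets and given to no gene. All members were named, as were listed pathway genes past 1.5-fold, the other isoenzymes except some that are not reported here, and the 5 probe sets most like the member of widest range. Members and lists were chosen with earlier results of these data known. The lists of reference genes and gene copies, centring on Gapdh or Actb, the classes of gene span and leaving Abcb1a, Camk2a and Syt1 out of marker lists were added after seeing the data. Alternatives were 3 centrings, other fold limits, the mean in place of the median, a filter on dim probe sets and a wider enzyme list. Promoter and protein sequences were not used here.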

Additional observations from a re-analysis of the deposited data

How the results depend on the processing

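No paired analysis was possible because the tables hold group averages only, and for the same reason no replicate could be left out. With no spread at hand, a value was taken as moved past 0.1 on the log2 scale, or past 1.5 times for a count. Between the strains, the median of 0.16 became 0.02 with centring on the 75th percentile, 0.04 with centring on probe sets at or above the lowest member, 0.04 with centring on Actb and 0.04 with the other enzymes of the same steps included. With TG against SAMP8, the median of 0.23 became -0.33 with centring on Gapdh, a turn that follows from subtracting the member with the second largest difference from all the others, 0.34 with centring on Actb and 0.13 with the other enzymes. With TG against SAMR1, the median of 0.51 became -0.05 with centring on Gapdh, here too by subtracting a member with a high difference, 0.11 with the other enzymes, and 0.41 as a mean. The number of members past 1.5-fold between the strains, 0, became 1 with median centring, 7 at 1.1-fold and 4 at 1.2-fold. With TG against SAMP8 the count of 1 became 2 with centring on the 75th percentile, on brighter probe sets, on Actb or on Gapdh (there both lower) and 2 with the other enzymes, and it was 8 at 1.1-fold, 4 at 1.2-fold and 0 at 2-fold. With TG against SAMR1 the count of 1 became 4 with the other enzymes, 9 at 1.1-fold, 8 at 1.2-fold and 0 at 2-fold. Of 90 single differences under 3 centrings, 20 moved by over 0.1 and 8 turned sign, those of Gapdh (-0.13 and -0.11), Hk1 (-0.12 and -0.10) and Aldoa (-0.02) between the strains and of Pgk1 (0.01) and Pgam1 (0.03 and 0.01) with TG. The promoter motif search was not run.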

Other observations

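Other genes that are used to scale expression assays were read beside Gapdh. Over 11 such genes the median difference was -0.03 with TG against SAMP8 and 0.09 between the strains. None of the 11 reached the 0.55 of Gapdh with TG. The nearest was Rplp0, a ribosomal protein, at 0.52, followed by Ppia, cyclophilin A, at 0.37 and Hprt, of purine salvage, at 0.33. Actb, beta-actin, stood at 19.22 for SAMR1, 19.34 for SAMP8 and 19.23 with TG, and Ywhaz differed by -0.16 with TG. Tbp, the TATA-binding protein, was 0.64 higher in SAMP8 than in SAMR1 and differed by -0.50 with TG. B2m, the light chain of class I histocompatibility molecules, was 1.45 higher in SAMP8 than in SAMR1 and 0.03 higher with TG than without it.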
